A study of Mus musculus with 15 samples.

Results

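Resting bone marrow derived macrophages of Ikzf KO mice were compared with resting macrophages of control mice by DNase-seq, which maps open chromatin from the places where DNase I cuts nuclear DNA. The 5 libraries at 0 h of lipopolysaccharide (LPS) were used, of 15 libraries in the series. They were Ikzf KO replicates 1 and 2, wild-type (WT) replicates 1 and 2, and 1 littermate control, all labelled as strain C57BL/6J and as not yet stimulated with the 10 ng/ml LPS of the time course. WT replicate 2 was digested with 100 U of DNase according to its title and the other 4 libraries with 80 U. The labelled protocol names a single DNase amount for all libraries. The 3 WT and littermate libraries are the controls. The labels give neither the KO allele nor the ages of the mice, nor whether replicates came from separate animals, so p-values rest only on how these libraries vary, and that variation may be technical. In bulk nuclei, fewer cells with an open site and a less open site in every cell cannot be told apart.

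The authors listed accessible stretches as hotspots, library by library, each with a highest tag density. Hotspots on chromosomes 1 to 19 were used. Each list was shortened to its 16572 densest hotspots, the length of the shortest list, and any hotspots of the 5 lists that overlapped by 1 bp or more were joined, which gave 23853 union regions. A region is called KO-only if it lay in both shortened KO lists and in no control list, and control-only if it lay in all 3 control lists and in no KO list. These classes describe the densest hotspots of each library, and a region outside a shortened list can still stand lower in the deposited list. Coordinates are those of the mouse build mm9 as deposited. No gene annotation of that build was used, so regions are given by position, and the Ikzf1 locus and macrophage marker genes were not checked here.

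Ikaros, the protein encoded by Ikzf1, is a zinc finger protein that binds DNA and is best known for its part in lymphocyte development, where it associates with chromatin remodelling and histone deacetylase complexes. In macrophages, accessible chromatin at rest marks promoters and the enhancers set up during differentiation by lineage factors. LPS, a component of bacterial outer membranes, activates macrophages through Toll-like receptor 4 and changes accessibility at many further sites.

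Hotspots were denser and broader in resting KO macrophages than in any resting control library. The deposited lists held 107045 and 108292 autosomal hotspots in KO, against 16572 and 20628 in WT and 61651 in the littermate control. At equal length, the median hotspot had a highest tag density of 23.9 and 24.0 in KO, against 8.36 and 9.94 in WT and 8.28 in the littermate control, in the authors' units. Both KO libraries stood above all 3 controls at the median of these lists. The shortened lists covered 30.4 and 29.8 Mb in KO, against 10.4, 12.3 and 15.5 Mb in WT replicates 1 and 2 and the littermate control. Each of these differences gave p = 0.1 in an exact two-sided permutation test, also after adjustment over 5 tests, the smallest value that 10 arrangements of 2 against 3 libraries allow. The deposited lists reached down to Z-scores of 3.64 and 3.66 in KO, against 8.29 and 9.29 in WT and 4.38 in the littermate control, so their lengths do not reflect equal thresholds. Read depth is not given in the files. If the smallest step of the densities gives relative depth, it was 1 and 0.994 in KO, against 0.80, 0.865 and 0.845 in WT replicates 1 and 2 and the littermate control. Strength, depth and genotype cannot be told apart at 0 h, and this holds for every result at 0 h below.

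**Figure D1:**
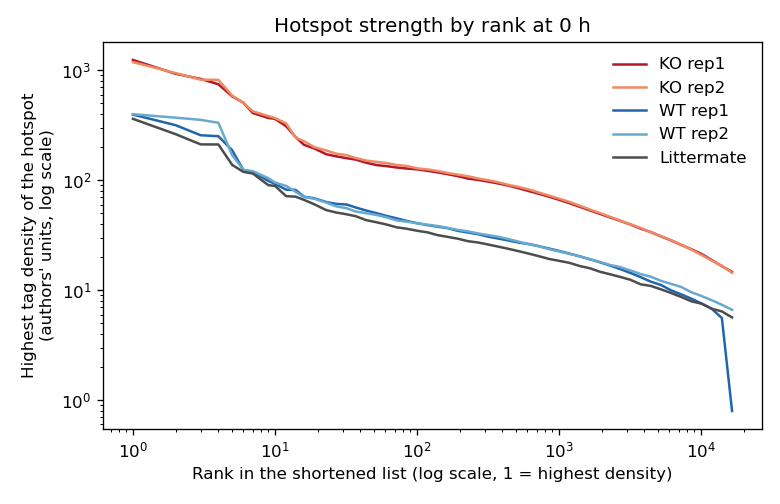
Highest tag density (authors' units, log scale) of hotspots by their rank in the shortened 0 h lists (log scale), with 1 line per library. The 2 KO lines run together above the 3 control lines at each rank, and their medians are 23.9 and 24.0 in KO, against 8.36, 9.94 and 8.28 in WT replicates 1 and 2 and the littermate control.

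Regions held by all 5 lists were the most frequent pattern, with 9519 of the 23853 union regions (39.9%). Within these shared regions hotspots covered more sequence in KO, with a median of 1870 and 1833 bp per region in KO, against 744 and 852 bp in WT and 1008 bp in the littermate control. In 9410 of the 9519 shared regions (98.9%) the covered length was greater in both KO libraries than in all 3 controls, and in 6 it was smaller. The difference in length thus ran through nearly the whole set of shared regions. Their median density was 31.2 and 31.1 in KO, against 11.1 and 12.5 in WT and 10.2 in the littermate control.

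**Figure D2:**
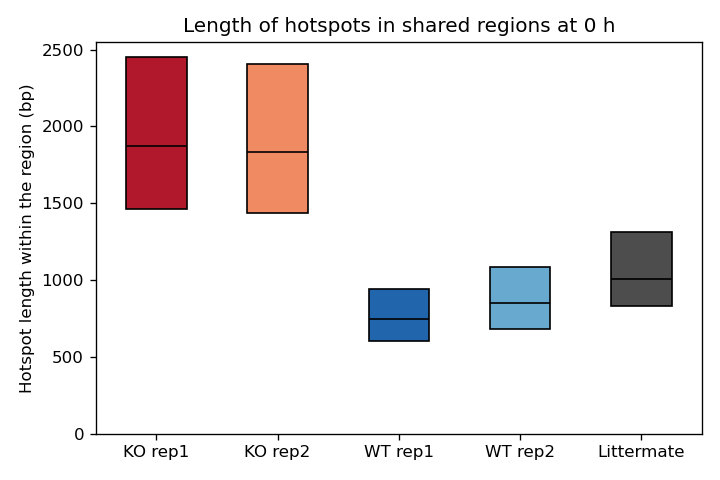
Sequence (bp) covered by hotspots inside each of the 9519 regions shared by all 5 lists at 0 h, per library. Boxes span the interquartile range with the median as a line, and the KO medians of 1870 and 1833 bp stand above those of WT (744 and 852 bp) and of the littermate control (1008 bp).

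More regions were KO-only than control-only. At equal list length 1518 regions were KO-only (6.36% of the union regions) and 623 were control-only (2.61%). Absence from 3 lists and presence in 2 is not the same demand as the reverse, so the counts are descriptions of these lists. The cut fell among tied densities. The last hotspot kept and the first dropped both had 14.6 in KO replicate 1 and 14.4 in KO replicate 2, both had 6.63 in WT replicate 2, and both had 5.65 in the littermate control. The WT replicate 1 list was not shortened and ended at 0.796. Leaving out a library changed the counts by over 1.5 times in several cases. Without WT replicate 1 the shortest list was longer, so each list then held 20628 hotspots. KO-only regions numbered 2571 without WT replicate 1 and 2301 without KO replicate 1. Control-only regions numbered 1223 without WT replicate 1, 1065 without WT replicate 2 and 972 without the littermate control. Without any shortening, 34966 of 159319 union regions were KO-only and 39 control-only. Against the littermate control alone each list held 61651 hotspots. Of 89723 union regions there, 21357 were KO-only and 22544 littermate-only, so the excess on the KO side did not hold. In that setting a littermate-only region needed presence in 1 list, while a KO-only region still needed both KO lists.

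KO-only regions were mostly moderate sites. Their median length was 1292 bp, against 802 bp for control-only regions and 1977 bp for shared regions. Their mean rank in the 2 KO lists had a median of 12393 of 16572, and 32 of them (2.11%) had a mean rank within the first 25% of the list. The median density was 18.5 and 18.2 in the 2 KO libraries, 0.592 and 0.588 times the median of shared regions in the same library. A part of them was also listed in controls, below the shortened lists. The deposited littermate list held 980 of the 1518 (64.6%) at a median density of 4.52, that of WT replicate 2 held 217 (14.3%) at 5.52, and that of WT replicate 1, the shortest, held none. Of all union regions the same lists held 92.5%, 73.1% and 64.3%. In WT replicate 2 and the littermate control KO-only regions were thus listed less often than union regions in general, which the choice of the class makes likely. The WT replicate 1 list was not shortened, so that it held none follows from the definition of the class. The remaining 515 KO-only regions (33.9%) were in no deposited control list at 0 h.

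Control-only regions were narrow, and most were listed in KO at lower ranks. The deposited KO lists held 599 and 602 of the 623 (96.1% and 96.6%), against 98.1% and 98.0% of all union regions, and 14 regions were in neither. Where listed, their median density in KO was 11.5 and 11.2, against 7.56 and 8.47 in WT and 7.53 in the littermate control. In the authors' units the median was thus higher in KO than in controls. Relative to the median of shared regions in the same library it was lower, at 0.367 and 0.361 in KO, against 0.679 and 0.676 in WT and 0.741 in the littermate control. A lower rank in KO is what the class was chosen by, so these ratios are a description.

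The strongest KO-only regions are described by their highest tag density in the deposited lists, in order of mean rank. The leading region, chr11:3101991-3102788, had densities of 101 and 123 in KO replicates 1 and 2 and was in no control list at 0 h. At 8 h of LPS it had 81.8 and 89.7 in KO. WT replicates 1 and 2 and the littermate control then had 128, 88.9 and 57.6, so the groups overlapped at that time. It lies within 0.5 Mb of the first hotspot of its chromosome, in a dense block of hotspots described further on. The next, chr4:129285378-129286568, had 62.4 and 63.1 in KO, against 5.15 in WT replicate 2 and 5.27 in the littermate control, and was not listed in WT replicate 1. The region chr5:44063322-44064905 had 64.6 and 53.1 in KO, against 4.52 in the littermate control, with no WT hotspot. That KO values at 0 h exceed control values in these regions follows from how the class was chosen.

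In the same block of chromosome 11, chr11:3025271-3026158 had 65.6 and 51.2 in KO and no control hotspot at 0 h. The region chr8:11297129-11298204 had 50.0 and 44.8 in KO and was in none of the 3 control lists at 0 h and in none of the 6 control lists at 3 h and 8 h. In KO it stayed listed at both times, with 26.9 and 23.8 at 3 h and 23.7 and 30.1 at 8 h. It is the only one of the 10 strongest KO-only regions that no control library held at any time.

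The other 5 of the 10 had 41.1 to 49.3 in KO replicate 1 and 39.1 to 47.7 in KO replicate 2. Of these, chr8:26414490-26416210 had 4.90 and chr3:95300994-95311028 had 3.77 in the littermate control, and chr2:166254491-166256359, chr6:54605071-54606641 and chr18:9551458-9553883 were in no control list at 0 h. All 10 were in all 4 KO lists under LPS, as were 96.3% of all union regions. At 8 h of LPS chr6:54605071-54606641 had 95.4 and 99.2 in KO, against 7.33 in the littermate control and no WT hotspot. At that site KO and control values stayed apart after stimulation.

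**Figure D3:**
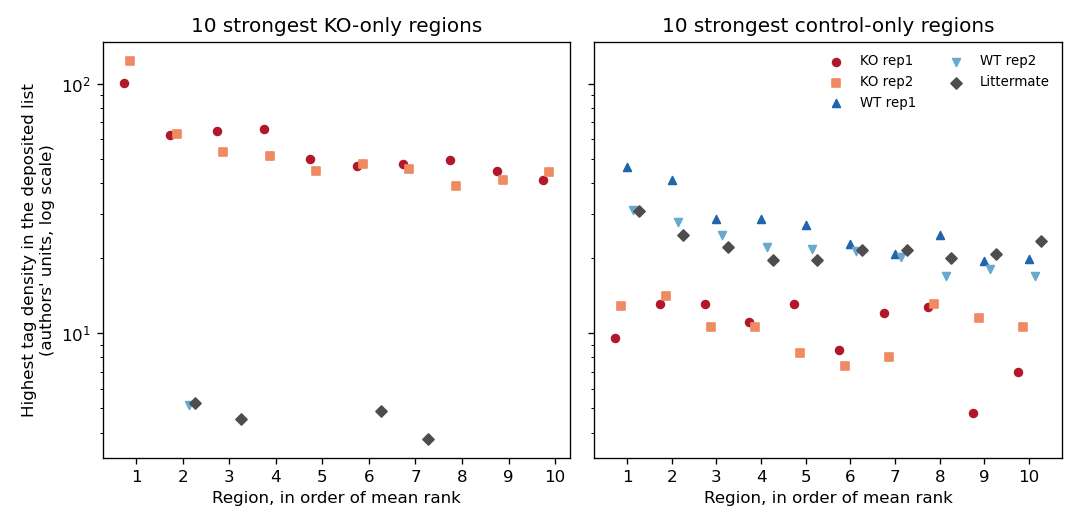
Highest tag density (authors' units, log scale) at 0 h of the 10 strongest KO-only regions (left) and the 10 strongest control-only regions (right), in order of mean rank, with 1 symbol per library and no symbol where a library lists no hotspot. KO values lie at 39.1 to 123 in the KO-only regions, and the 5 control values there at 3.77 to 5.27.

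The strongest control-only regions had high ranks in all 3 controls and were listed in both KO libraries. The leading region, chr4:3006739-3013676, had 9.55 and 12.8 in KO, against 46.2, 31.3 and 30.9 in WT replicates 1 and 2 and the littermate control. Its rank was 28153 and 19403 in the deposited KO lists, against 66, 336 and 157 in the controls. The region chr16:3231406-3241784 had 13.0 and 14.1 in KO, against 41.0, 28.0 and 24.9 in the controls. Both lie within 0.5 Mb of the first hotspot of their chromosome. The region chr18:85885263-85886228 had 13.0 and 10.6 in KO, against 28.7, 24.7 and 22.2 in the controls. Across the 10 regions the KO values were 4.77 to 14.1 and the control values 16.9 to 46.2, a separation that the choice of the class favours.

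The leading site stayed apart under LPS. The region chr4:3006739-3013676 had 7.84 and 10.3 in KO at 3 h, against 38.3, 41.7 and 25.7 in WT replicates 1 and 2 and the littermate control. At 8 h it had 10.0 and 7.12 in KO, against 20.7, 23.6 and 13.7 in the controls. The KO values stayed below the controls at both times, and each control value was lower at 8 h than at 3 h. Relative to the median of shared regions in the same library, the controls stood at 3.19, 3.00 and 2.48 at 3 h. At 8 h they stood at 0.539, 0.723 and 0.414, below that median. KO stood at 0.262 and 0.35 at 3 h and at 0.275 and 0.195 at 8 h. On this scale the groups were nearer at 8 h than at 3 h.

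Control-only regions lay on every autosome, and a minority lay close together. The 6 megabases richest in them held 35 of the 623 (5.62%). The stretch chr8:19758568-19944065 held 8 control-only regions among 27 union regions, and it includes chr8:19923857-19924355, chr8:19924593-19925848 and chr8:19928713-19929241, which rank among the 10 strongest. The second of these 3 had densities of 11.1 and 10.6 in KO, against 28.7, 22.1 and 19.6 in WT replicates 1 and 2 and the littermate control. The stretch chr1:85081385-85277360 held another 8 among 29 union regions, and chr10:57512184-57718522 held 6 among 15. Chromosome 1 had the highest share of control-only regions (68 of 1623 regions, 4.19%) and the lowest share of KO-only regions (75, 4.62%). KO-only regions peaked in other stretches, with 10 each in chr2:167105562-167906625, chr10:79095707-79909597, chr11:116087592-116972211 and chr19:5037877-5957277. These held 47, 62, 32 and 58 union regions. By chromosome the share of KO-only regions ran to 7.98% on chromosome 15. These stretches were chosen after their values were seen.

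The 14 control-only regions that no deposited KO list held at 0 h were the sites most fully missing from KO. These, too, were set apart after their values were seen. Of the 14, 12 were also in none of the 4 KO lists under LPS, against 354 of all 23853 union regions. All 14 were in at least 1 of the 6 control lists under LPS, as were all but 460 of the 23853 union regions. The 3 strongest of the 14 lie together on chromosome 17, within 0.5 Mb of its first hotspot. At chr17:3009960-3010617 the density was 21.9, 16.9 and 11.3 in WT replicates 1 and 2 and the littermate control. At chr17:3026811-3027401 it was 25.1, 16.2 and 10.5, and at chr17:3029649-3030474 it was 21.9, 12.5 and 11.7. The only site among the first 4 that lies elsewhere, chr5:137632694-137633890, had 12.3, 15.1 and 11.3 in the same controls before LPS. It had 13.3, 14.7 and 14.9 after 3 h and 13.0, 12.8 and 8.99 after 8 h.

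At 4 of the 14 the density was higher at 8 h than at 0 h in each control, while KO had no hotspot at any time. The median of shared regions was higher at 8 h in the controls as well, at 11.1, 12.5 and 10.2 before LPS and 38.5, 32.6 and 33.0 after 8 h in WT replicates 1 and 2 and the littermate control. At chr13:61905396-61906086 WT replicates 1 and 2 and the littermate control had 6.37, 12.9 and 6.40 before LPS. They had 6.26, 7.15 and 7.22 after 3 h, and then 25.1, 28.5 and 29.6 after 8 h. The region chr8:92914898-92915916 had 6.77, 10.7 and 8.28 in the same libraries at 0 h, and 20.7, 24.0 and 22.6 at 8 h. The other 2 sites were chr3:87369889-87370746 and chr5:100954995-100955855, with control densities of 9.03 to 18.1 at 8 h. Relative to the shared regions of the same library, chr3:87369889-87370746 stood at 0.75, 0.588 and 0.778 in the controls before LPS and at 0.409, 0.553 and 0.384 after 8 h. At that site the higher densities at 8 h were therefore no gain over other regions. On the same scale chr8:92914898-92915916 and chr5:100954995-100955855 also stood lower at 8 h in each control. By contrast, chr13:61905396-61906086 went from 0.571 to 0.652 in WT replicate 1 and from 0.63 to 0.899 in the littermate control. In WT replicate 2 it went from 1.03 to 0.872.

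The libraries at 3 h and 8 h took no part in choosing the regions and show how far the classes recur. Each of those 10 lists was shortened to 15042 hotspots. Of the 1518 KO-only regions, 58.3% and 54.5% were in the KO lists at 3 h, against 15.1%, 21.5% and 18.6% in WT replicates 1 and 2 and the littermate control. At 8 h the shares were 55.7% and 53.8% in KO, against 19.6%, 20.8% and 20.2% in the controls. KO-only regions were thus found more often in each KO list than in any control list at both times, and the 2 groups did not overlap. Averaged over the 2 times in each of the 5 series of libraries, the difference was 36.3 percentage points (exact two-sided permutation over series, p = 0.1, the smallest that 10 arrangements allow).

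Control-only regions showed the reverse. Of the 623, 10.6% and 16.7% were in the KO lists at 3 h, against 58.9%, 41.6% and 53.9% in WT replicates 1 and 2 and the littermate control. At 8 h they were in 13.2% and 17.5% of cases in KO, against 43.2%, 38.8% and 44.3% in the controls. The difference was -32.3 percentage points (exact permutation p = 0.1, again the smallest possible). Shared regions were found about equally often, with 89.8% to 90.7% in KO lists and 85.3% to 91.9% in control lists. The difference of 0.795 points there gave an exact permutation p of 0.4.

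The densities of shared regions were nearer between genotypes at 8 h than at rest or at 3 h. Their median was 36.6 and 36.5 in KO at 8 h, against 38.5, 32.6 and 33.0 in WT replicates 1 and 2 and the littermate control, and the KO values lay inside the range of the controls. At 3 h the median of the listed shared regions was 29.9 and 29.6 in KO. It was 12.0, 13.9 and 10.4 in WT replicates 1 and 2 and the littermate control. Strength and genotype thus cannot be told apart at 3 h either. The part of library strength in the presence of KO-only and control-only regions was not tested. In the lists as deposited, the share of KO-only regions listed was 74.5% and 76.5% in WT and 91.1% in the littermate control at 8 h, where the KO lists held 99.9% each. Of all union regions the same control lists held 91.5%, 92.3% and 97.4%, and the KO lists 97.5% and 97.6%. Most KO-only regions were therefore listed in the controls as deposited at 8 h, less often than union regions in general. At 3 h the deposited lists held 15.1% and 29.8% of KO-only regions in WT and 55.2% in the littermate control. Of all union regions these 3 h lists held 53.4%, 62.6% and 82.2%.

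**Figure D4:**
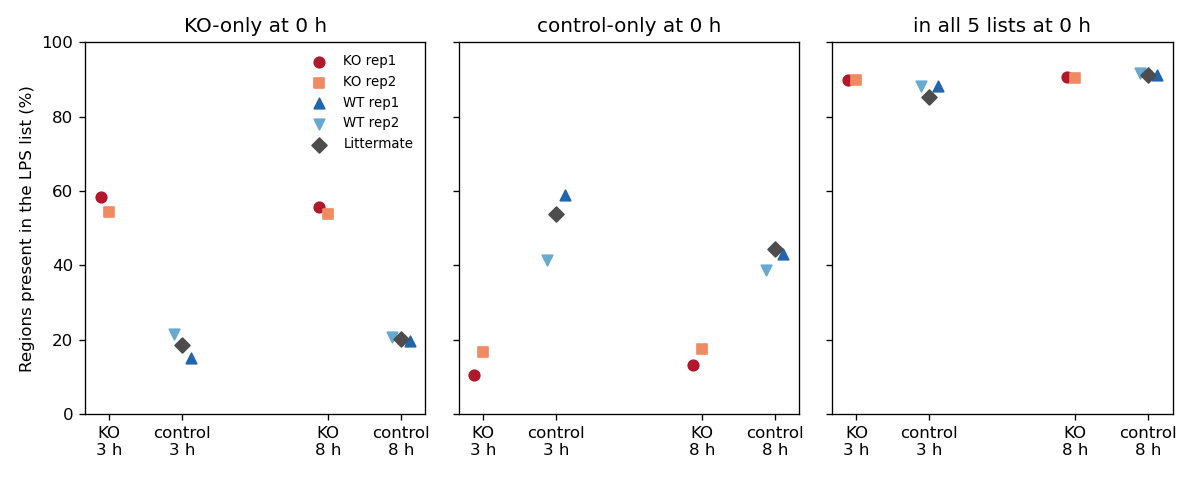
Share (%) of regions that were KO-only, control-only or shared at 0 h and that lay in each of the 10 lists at 3 h and 8 h of LPS, shortened to 15042 hotspots, with 1 symbol per library. KO lists hold 53.8% to 58.3% of the KO-only regions, against 15.1% to 21.5% in control lists, while KO lists hold 10.6% to 17.5% of the control-only regions, against 38.8% to 58.9% in control lists.

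Among the 9519 shared regions, some changed their place in the order of densities. Each region received a percentile of density within each library, with 100 as the densest, and KO and control percentiles were compared with limma. At an adjusted p under 0.05 (Benjamini-Hochberg over all shared regions), 55 regions ranked higher in KO (0.578%) and 334 ranked lower (3.51%). The median shift was 52.2 percentile points among the higher and -54.1 among the lower regions, against a median absolute shift of 13.8 over all shared regions. KO replicates were alike, with a median absolute difference of 5.36 points, against 13.0 between the WT replicates. These calls rest on all 5 libraries. Without WT replicate 1, WT replicate 2 or the littermate control none passed in limma, although 1645, 1227 and 1425 regions were higher at an unadjusted p under 0.05 and 1729, 1361 and 1439 lower. Without KO replicate 1 there were 1 higher and 136 lower calls, and without KO replicate 2 there were 1 and 137.

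The regions that ranked higher in KO were mostly weak in controls and dense in both KO libraries. Across the 55, the median percentile was 68.7 and 68.0 in KO, against 11.3 and 12.1 in WT and 11.03 in the littermate control. The calls were made on these percentiles, so a separation of this kind follows from the choice. The largest shift was at chr19:34336468-34338249, which had densities of 66.8 and 59.5 in KO, against 3.18, 8.84 and 6.78 in WT replicates 1 and 2 and the littermate control. Its shift was 78.9 points (95% interval 52.8 to 105, limma adjusted p = 0.016). The fit does not bound percentiles, so this interval passes 100 points, which no shift can reach. The same site had 112 and 125 in KO at 8 h of LPS, against 8.03, 12.8 and 13.3 in the controls. It was separated between the genotypes before and after LPS.

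The region chr5:136692764-136694243 had 52.5 and 50.3 in KO at rest, against 4.78, 7.36 and 6.78 in the controls, a shift of 75.8 points (limma adjusted p = 0.013). Here the genotypes were nearer after LPS, with 75.1 and 82.1 in KO at 8 h, against 53.5, 42.0 and 52.0 in the controls. At chr2:164681610-164684317 they met. KO had 62.1 and 66.9 at rest, against 8.76, 10.7 and 6.03 in the controls, and at 8 h KO had 22.6 and 22.8, against 23.7, 21.2 and 24.0 in the controls. Thus the resting difference was still seen at 8 h at some sites and not at others.

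The other 7 of the 10 largest were chr17:21702820-21705186, chr4:141321849-141323562, chr12:76408350-76411891, chr14:67806910-67808361, chr11:114908072-114911261, chr7:146110598-146112116 and chr1:39792091-39793700. Their shifts were 64.8 to 72.6 points, with limma adjusted p of 0.018 to 0.048. Their densities were 41.4 to 82.4 in KO replicate 1 and 41.0 to 90.3 in KO replicate 2, against 3.58 to 10.2 over all controls. Densities were higher in KO over shared regions in general. The percentiles on which these regions were called remove a common difference in scale only. Strength, depth and genotype still cannot be told apart.

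The regions that ranked lower in KO were mostly among the densest in controls. Across the 334, the median percentile was 34.0 and 34.8 in KO, against 94.2, 85.8 and 89.1 in WT replicates 1 and 2 and the littermate control. Here too the separation in percentiles follows from the choice. The largest shift was at chr9:13422359-13423496, with densities of 15.9 and 16.6 in KO, against 32.6, 30.9 and 29.4 in the controls. Its shift was -94.1 points (95% interval -118 to -70.7, limma adjusted p = 0.0068). This interval, too, passes the largest fall that percentiles allow. At chr17:13743197-13746292 the densities were 18.1 and 17.3 in KO, against 58.1, 33.1 and 36.9 in the controls, and at chr5:80242150-80244073 they were 17.5 and 17.6, against 30.6, 35.7 and 32.8. These 3 sites were less dense in KO in the authors' units too, unlike the bulk of shared regions. The 334 regions as a class were not. Their median density was 25.8 and 25.9 in KO, against 26.5 and 20.2 in WT and 18.1 in the littermate control.

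The other 7 of the 10 largest falls were chr17:3076234-3078295, chr5:33067911-33069350, chr14:9118850-9119593, chr8:74944397-74946276, chr17:35977747-35978989, chr4:118220039-118221627 and chr16:22008817-22010936, with shifts of -87.5 to -79.5 points. At rest chr8:74944397-74946276 had 16.5 and 16.97 in KO, against 19.9, 25.03 and 18.1 in the controls, and at 8 h of LPS it had 27.9 and 25.9 in KO, against 76.3, 55.5 and 50.6. Likewise chr17:35977747-35978989 had 19.1 and 17.3 in KO at rest, against 28.7, 21.4 and 21.1, and 38.0 and 48.6 in KO at 8 h, against 91.3, 56.6 and 76.6. The control densities of shared regions were also higher at 8 h than at rest, so these values are read against the median of shared regions in the same library. On that scale chr8:74944397-74946276 stood at 0.531 and 0.546 in KO at rest, against 1.79, 2.00 and 1.78 in the controls, and at 0.763 and 0.708 in KO at 8 h, against 1.98, 1.70 and 1.54. KO stayed below all controls at this site at both times.

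**Figure D5:**
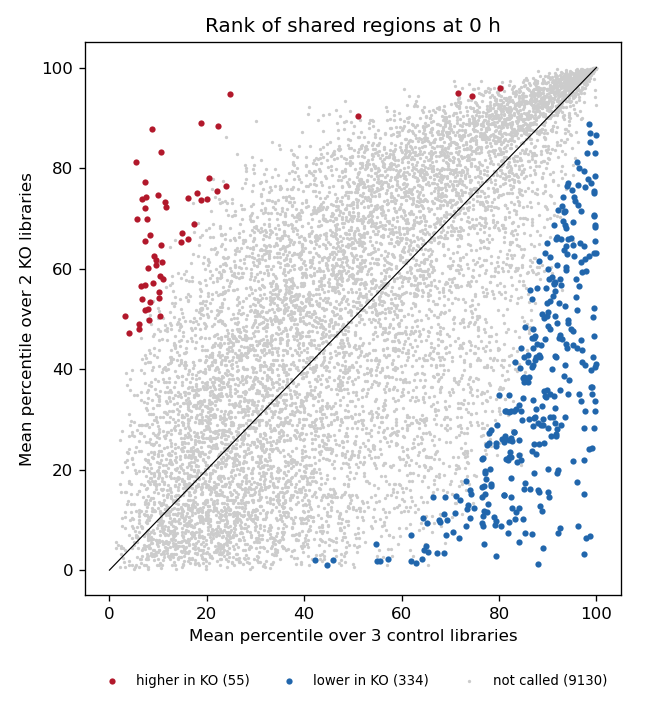
Mean percentile of density over the 2 KO libraries (vertical axis) and over the 3 control libraries (horizontal axis) for each of the 9519 regions shared at 0 h, with the diagonal as a line. Red points are the 55 regions called higher in KO and blue points the 334 called lower (limma, adjusted p under 0.05).

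The shifts at rest recurred in the stimulated libraries, which the calls did not use. Of the 55 higher regions, 54 had a higher mean percentile in KO than in controls at 3 h and 49 at 8 h, against 53.1% and 52.0% of all shared regions. Of the 334 lower regions, 334 had a lower mean percentile in KO at 3 h and 328 at 8 h, against 46.9% and 48.0% of all shared regions. Counted more strictly, both KO values exceeded all 3 controls in 42 of the 55 at 3 h (22.4% of all shared regions) and in 45 at 8 h (27.7%). Both lay below all 3 controls in 274 of the 334 at 3 h (19.5%) and in 300 at 8 h (26.3%). The median difference at 8 h was 34.4 points for the higher and -27.2 points for the lower regions, against 0.396 over all shared regions. Libraries of a series may come from the same cells, so the stimulated libraries are separate libraries and not certainly separate animals. At 3 h the median density of shared regions was also higher in KO. The part of library strength in the recurrence was not tested.

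A stretch near the first hotspots of chromosome 11, chosen after its values were seen, held several classes side by side. In chr11:3023486-3102788, a span of 79.3 kb, there were 27 union regions. Of these, 17 ranked lower in KO, 2 were KO-only (both among the strongest KO-only regions named above), 5 were shared without a call and 3 were in none of these classes. The 17 had densities of 21.6 to 55.7 in KO replicate 1, against 27.9 to 53.5 in the littermate control. The 5 shared regions without a call had 88.2 to 387 in KO replicate 1, against 46.7 to 88.9 in the littermate control. Within this stretch the densities spread more widely in KO replicate 1 than in the littermate control. In all, 24 of the 334 lower regions (7.19%) and 14 of the 623 control-only regions (2.25%) began within 0.5 Mb of the first hotspot of their chromosome, against 0.667% of all union regions. Of these 24, 17 were those of the chromosome 11 stretch, 2 were on chromosome 17 and 5 lay elsewhere. Outside the chromosome 11 stretch the share was 7 of 317 lower regions (2.21%).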

How the data were processed

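DNase-seq hotspot lists of resting macrophages were analysed. Per the labels' protocols, DNase I digestion of nuclei was followed by sucrose gradient size selection and single-end sequencing. The submitters' processing notes name mm9 as build and CASAVA as a tool. No source used here names the aligner, or the caller of hotspots with its cut-off. Per the file headers, the authors deposited for each hotspot a highest and a mean tag density, which is a signal of unstated scaling. The deposited Z-score is a score per hotspot, and the deposited p-value was not used. The authors called each library separately.

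Lists were shortened by highest density, with ties broken by mean density and then position. Tied densities were frequent, since they are whole multiples of a step of 0.318 to 0.398 in every hotspot within 0.05 steps. Read depth is unknown, so no counting intervals are given. Percentiles of shared regions were compared with limma 3.58.1 (R 4.3.3) with a mean-variance trend and adjusted by Benjamini-Hochberg, after tests on simulated lists and percentiles. In stimulated libraries a shared region with no hotspot took the lowest percentile. Library means were compared by exact two-sided permutation. Lists were handled in Python 3.11.15 with pandas 2.3.3.

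The 10 best-ranked KO-only and control-only regions and the 10 largest called shifts in each direction are named. The regions, lists and tests were chosen with earlier results of these data known. Alternatives were another order for shortening, other list lengths, 50% coverage of a region, bins of 500 bp, chromosomes X and Y, other scales, a replicate block and leaving out libraries. An annotation of mm9 was not used here, so genes, motifs and sequences are not reported.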

Additional observations from a re-analysis of the deposited data

How the results depend on the processing

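KO-only counts stayed within 1.5 times when lists were shortened by Z-score or mean density or when X and Y were added. They were 825 of 12545 union regions at 0.5 times the list length and 34966 of 159319 in the lists as deposited. With 50% of the region covered they were 7204 of 23853. They were 24735 of 97919 in bins of 500 bp and 21357 of 89723 against the littermate control alone. Control-only counts under the last 4 of these settings were 39, 437, 1229 and 22544. With 1 library left out they ran from 2024 to 2571 KO-only and from 828 to 1223 control-only. Shifts numbered 22 higher and 137 lower of 4329 shared regions at 0.5 times the length, and 22 and 96 of 1640 with 50% coverage. The main setting tested 9519. Of the same 9519, 87 were higher by mean density and 184 by quantile-normalised log2 density, with the lower counts of these last 2 within 1.5 times. Shifts numbered 5939 and 5470 of 32271 against the littermate control alone, where only the KO replicates give a spread. With 1 library left out they ran from 0 to 1 higher and from 0 to 137 lower. With fewer libraries fewer degrees of freedom remain, and the cause of the other changes was not tested. At 0.5 times the length, 4 of the 55 higher and 172 of the 334 lower regions were still among the shared regions. With 50% coverage these were 1 and 106, so most higher calls under both settings were of other regions. With KO and WT libraries only, limma called 0 and 0 both with and without the replicate number as a block, and at an unadjusted p under 0.05 it gave 1091 higher and 1246 lower with the block. The KO and WT replicate numbers did not pair (correlation of differences -0.10), and a crossed pairing, chosen after seeing the data, gave 113 and 433. Presence in stimulated libraries kept its direction in every setting, with the smallest differences, 3.86 and -0.571 points, against the littermate control alone. When genotype was permuted over libraries within each time, the differences of 36.3 and -32.3 points had an exact permutation p of 0.01, which treats libraries of a series as independent. Of the 10 named regions of each class, all 10 control-only and 4 KO-only lost their class in the lists as deposited and against the littermate control alone, and 5 and 1 did without WT replicate 1 (20628 hotspots per list). All 20 named shifts lost their call without any 1 control library. No named region turned its direction in the settings where it was found again. None of the named shifts was found among the shared regions at 0.5 times the length.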

Other observations

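Hotspots on the sex chromosomes were left out of the comparisons above. In lists of 17237 hotspots that include them, chromosome X held 1.42% and 1.33% of hotspots in KO, against 3.38% and 1.80% in WT and 1.86% in the littermate control. Chromosome Y held 0.203% and 0.186% in KO, against 0.482% and 0.447% in WT and 0.603% in the littermate control. Both KO shares lay below all 3 control shares on both chromosomes, and the difference was not tested.

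Of the 515 KO-only regions that no deposited control list held at rest, 510 (99.0%) were in all 4 stimulated KO lists, against 96.3% of all union regions. In the stimulated controls 18 (3.50%) were in all 6 lists and 108 (21.0%) were in none, against 48.9% and 1.93% of all union regions. WT replicate 1 held 30 of them at 3 h and 273 at 8 h, WT replicate 2 held 73 and 280, and the littermate control held 170 and 402.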
